A study of Alligator mississippiensis with 17 samples.

Results

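The replacement tooth (RT) of the American alligator, the formed successor tooth, was set against early growth dental lamina (EG), in which the next tooth bud is growing. The comparison took the 5 RT libraries and the 4 EG libraries, 9 of the 17 libraries of the series. They were chosen by their sample titles and descriptions. The other 8 libraries are lamina at initiation (IS) and before initiation (PIS) and are given here only as levels. Animals of both groups were 1 year old, untreated and raised in the laboratory at 30 degrees. Total RNA was sequenced after TruSeq preparation. Whether the replicates of a group were taken from different animals is not stated in the labels, and the p-values below therefore measure only the spread between these libraries. A stage field in the labels has the same entry for every sample and was not used.

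A tooth is made by an epithelium and a mesenchyme that signal to each other. Epithelial ameloblasts secrete enamel matrix such as ameloblastin and enamelin, which the protease MMP20 cleaves. Mesenchymal odontoblasts secrete dentin, a collagen I matrix that is mineralised under the control of phosphate and pyrophosphate. The dental lamina is the epithelial band that persists beside each tooth and buds its successor, and WNT, FGF, BMP, hedgehog and ectodysplasin signals pass between it and the mesenchyme around it.

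Values below are scaled RPKM, the deposited RPKM (reads per length of gene model and per number of alignments in the library) divided by a median-ratio factor per library. Fold changes are RT minus EG on the scale of log2(scaled RPKM + 0.5), which understates the change of genes near 0. Values in parentheses are the log2 fold change and its adjusted p. Where every library is listed, values run in order of replicate number. Genes with an adjusted p under 0.05 in limma (Benjamini-Hochberg method) count as called. The adjustment ran over the 12389 genes with an RPKM of at least 1 in at least 3 of the 9 libraries. Some genes met this filter only through the group in which they were higher. Among the named genes, these include SOX2, LRIG1, NTRK2, WNT16, MYOCD, NR2F1 and KERA through EG. TAC4, CA9, OLFM3, WNT1, CASR, RARB and GDNF met it only through RT. For other named genes some libraries of the lower group reached that RPKM, but too few to meet the filter alone. Among genes higher in RT these include AMTN, COL22A1 and LGR5. Among genes lower in RT they include FST, LUZP2, CTSW, FGF10, RET, TAC1, CYP1B1, SP5, FGF7, CLEC3B, NGFR, DKK2 and EDA. For such genes the filter favoured a gap, so a lack of overlap is not separate support. Depth was 25669500 to 37209700 alignments in RT and 22368700 to 37747400 in EG.

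The RT libraries differed among themselves far more than the EG libraries did. Spearman's rho across genes was 0.865 to 0.959 between RT libraries, 0.966 to 0.987 between EG libraries and 0.834 to 0.951 between the groups (genes are not independent replicates). On the first principal component RT replicates 1 and 2 lay at -8.57 and 1.09, nearer to the EG libraries at -37.9 to -35.2 than were RT replicates 3, 4 and 5 at 59.5, 36.5 and 58.5. RT replicate 2 stood apart on the second component, at 53.9. RT replicates 1 and 2 had a higher median rho to the EG libraries, 0.945 and 0.905, than to the other RT libraries, 0.911 and 0.898. For RT replicates 3, 4 and 5 it was 0.838, 0.89 and 0.845 to EG, and 0.928, 0.937 and 0.914 to RT. The 10 highest genes held 20.8% to 30.5% of all RPKM in RT and 5.97% to 15.9% in EG, and the scaling factors were 0.76 to 0.986 in RT and 1.14 to 1.22 in EG.

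**Figure D1:**
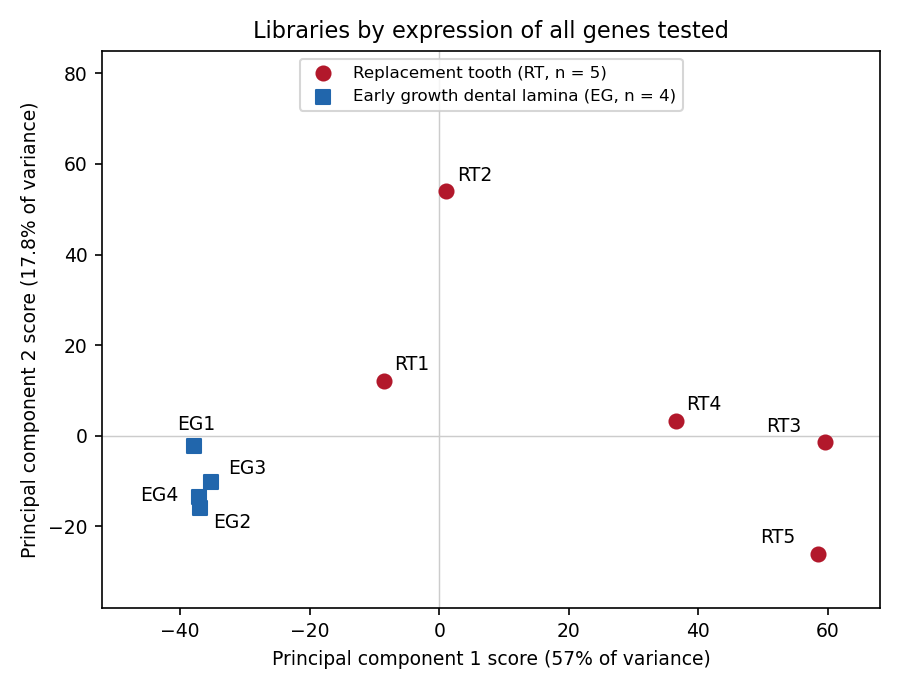
Scores of the 9 libraries on the first 2 principal components of log2(scaled RPKM + 0.5) over all genes tested; each point is 1 library, red circles RT and blue squares EG. The 4 EG libraries lie close together at -37.9 to -35.2 on the first component, while the RT libraries spread from -8.57 to 59.5.

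Of the 12389 genes, 1575 (12.7%) were called, 1017 (8.21%) higher in RT and 558 (4.5%) lower. The ranges of the 2 groups did not overlap for 1194 genes (9.64%) higher in RT and 793 (6.4%) lower. Among called genes, 698 differed by at least 1 on the log2 scale, 471 higher and 227 lower. The 15 greatest rises and 15 greatest falls were picked only from called genes with a symbol and no overlap. For them the lack of overlap was a condition of being named and is not a further result. The rises given below are AMTN, SCNN1D, TAC4, ABI3BP, COL11A2, SPP1, FMOD, ENPP1, MAPK8IP1, CA2, OLFML2A and OLFM3. The falls given are LRIG3, HHIP, CPE, LIMK1, DKK2, FST, CLEC3B, SP5, SOSTDC1, LUZP2, CYP1B1, FGF10, CTSW and TAC1. RT replicate 1 was the lowest of the RT libraries in 714 (70.2%) of the 1017 higher genes and the highest of them in 275 (49.3%) of the 558 lower genes. Leaving it out raised the count of called genes to 3634, and leaving out RT replicate 2 instead raised it to 2344. The count was 751, 699 and 973 without RT replicate 3, 4 or 5, and 761, 537, 448 and 478 without EG replicates 1 to 4 in turn. Without RT replicates 3 and 5 together it was 539. The split by direction depends on scaling. As deposited, the median gene was 0.37 lower in RT on the log2 scale, and 585 genes were called higher and 5119 lower. After scaling the median over all genes tested was -0.01, and every list median below is read beside that value. Of the 102 called genes named in the account below, 49 stayed called whichever single library was left out. For the others the libraries whose omission ended the call are given. A named call with no such libraries was kept without any 1 library, except for KERA, ITGB3 and ABCC9. KERA did not pass the filter without EG replicate 1, 2 or 4 and kept its call without each of the other 6 libraries. ITGB3 and ABCC9 were not followed in other settings and are not counted among the 102. Calls that ended under another filter, scaling, pseudocount or trend, or with all 17 libraries in the fit, are named beside the gene. Losses in the other settings are given here instead. Without RT replicates 3 and 5 together, 47 of the 101 named calls fitted were lost, NGFR, COPE and KERA among them. A block by replicate number ended 56 of 102, and requiring a log2 fold change of at least 1 ended 16. Shares of a list that were called are read beside the 8.21% higher and 4.5% lower of all genes. Those shares belong to the main fit, and list counts under another setting are read beside all genes called in that setting. With 1 library left out these were 308 to 2005 higher and 140 to 1629 lower. Without scaling they were 585 and 5119, and with quantile normalization 924 and 693.

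Enamel genes were expressed on both sides and, as a group, did not separate them. AMTN, which encodes amelotin, in mammals a protein that maturing ameloblasts lay between themselves and the enamel, was the one gene of the list called higher. It stood at 237, 18.1, 127, 1980 and 38.7 in RT, against 0.354, 0.487, 1.56 and 1.43 in EG. All RT libraries lay above all EG libraries, although RT replicate 4 was far above the rest. AMTN met the filter only with RT libraries counted, so this gap is not separate support. The log2 fold change of 6.63 ± 1.16 (SE, adjusted p = 0.00974) was the greatest rise among called genes with a symbol whose ranges did not overlap. In IS and PIS its level did not exceed 1.03. AMBN, the ameloblastin gene, stood at 1680, 4320, 185, 1580 and 12.7 in RT, against 28.9, 117, 787 and 1600 in EG. The groups overlapped over most of their range (0.93, adjusted p = 0.745), with RT replicate 5 below every EG library. For ENAM, the enamelin gene, values were 157, 1220, 17.3, 76.2 and 9.85 in RT, against 43.6, 72.1, 352 and 457 in EG. RT replicate 2 alone was above the EG range and RT replicates 3 and 5 were below it (-0.97, adjusted p = 0.648). MMP20 was 5.37 to 321 in RT and 24.6 to 106 in EG (0.23, adjusted p = 0.892). Tuftelin, a protein of the developing enamel encoded by TUFT1, was lower, at 7.39 to 23.9 in RT and 25.6 to 30.6 in EG (-1.16, adjusted p = 0.0339). Of 21 genes listed, 16 are in the table and 13 passed the filter; 1 of 13 tested members was called higher and 1 lower, with a median log2 fold change of 0.13. AMELX, AMEL, ODAM and KLK4 are not listed under those symbols and were not analysed here. The TUFT1 call was lost without any 1 of the 4 EG libraries or RT replicate 3 or 5 (adjusted p = 0.0635 to 0.0945). The TUFT1 call was lost with all 17 libraries in the fit (adjusted p = 0.14).

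CALB1, a gene for a calcium-binding protein that is abundant in mammalian ameloblasts, had its highest and lowest RT libraries in common with AMBN, ENAM and MMP20 but not with AMTN. It stood at 396, 920, 52.3, 562 and 0.376 in RT, against 10.1, 31, 187 and 313 in EG. RT replicate 5, lowest for AMBN, ENAM and MMP20, was the lowest here too, and RT replicate 2 was the highest RT library for all 4 genes (0.58, adjusted p = 0.862). Summed over the 16 enamel genes of the table, the level was 264 to 6320 in RT and 387 to 2430 in EG.

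Several genes that control mineral in dentin and bone separated the groups in every library. PHEX, an endopeptidase gene whose loss in humans causes X-linked hypophosphatemia, was 99.5, 252, 550, 237 and 396 in RT, against 42.2, 39.9, 36.2 and 18.8 in EG. Each RT library lay above each EG library, RT replicate 1 nearest to them, and the log2 fold change was 3.00 ± 0.46 (SE, adjusted p = 0.00564). ENPP1 makes pyrophosphate, an inhibitor of mineral growth. Its levels were 45.6, 110, 205, 179 and 68.3 in RT, against 4.23, 5.35, 7.17 and 3.96 in EG. The lowest RT value was 6.35-fold the highest EG value (log2 fold change 4.25 ± 0.42 SE, adjusted p = 0.00149). FAM20C encodes the Golgi kinase that phosphorylates secreted matrix proteins, and stood at 37.6, 91.1, 175, 120 and 127 in RT, against 13.5, 10.8, 13.1 and 11.6 in EG. The EG libraries were close together, and all 5 RT libraries were higher (log2 fold change 2.96 ± 0.38 SE, adjusted p = 0.00352). SLC20A1, a sodium-phosphate cotransporter gene, was 38.3 to 92.7 in RT and 25.3 to 30.5 in EG (1.37, adjusted p = 0.00935). These 4 calls held whichever single library was left out.

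Several dentin matrix genes rose too, more unevenly. COL1A1, a chain of collagen I, was 3790, 6440, 25000, 15400 and 36400 in RT, against 1210, 2140, 1990 and 1720 in EG. RT replicates 3, 4 and 5 were the highest, and RT replicate 1 was 1.77-fold the highest EG library (log2 fold change 2.89 ± 0.7 SE, adjusted p = 0.0294). COL1A2, the partner chain, was 2040 to 19300 in RT and 964 to 1630 in EG (2.38, adjusted p = 0.0444). SPP1, the osteopontin gene, stood at 20.2, 79.7, 571, 448 and 4010 in RT, against 13.2, 9.3, 10.6 and 8.89 in EG. The ranges did not overlap, but RT replicate 5 was far above the other RT libraries and RT replicate 1 was close to EG (log2 fold change 4.68 ± 1.27 SE, adjusted p = 0.0426). IBSP, the bone sialoprotein gene, was 1.42, 6.41, 30.3, 29 and 301 in RT, against 2.12, 7.99, 12.5 and 8.89 in EG. Here too RT replicate 5 stood alone, RT replicate 1 lay below the EG range, and the gene was not called (1.51, adjusted p = 0.424). SP7 (osterix), a transcription factor gene of osteoblasts and odontoblasts, was 20 to 89.6 in RT and 6.88 to 28.9 in EG (1.78, adjusted p = 0.0436). RUNX2, an upstream factor, was 2 to 12.9 in RT and 6.97 to 10.1 in EG (-0.27, adjusted p = 0.688), and ALPL, the alkaline phosphatase gene, was 13 to 47.6 in RT and 45.9 to 57.2 in EG (-1.08, adjusted p = 0.0768). The matrix glycoprotein gene SPARC (1.83, adjusted p = 0.0332) and the mineral inhibitor gene MGP (1.22, adjusted p = 0.0473), which the rule did not name and which were chosen after their values were seen, were also higher in RT. SPOCK3, which encodes a secreted proteoglycan, was lower, at 2.23 to 4.38 in RT and 6.73 to 11.4 in EG (-1.30, adjusted p = 0.00468). The COL1A1 and SPP1 calls were each lost without any 1 of the 4 EG libraries or RT replicate 3 or 4 (adjusted p = 0.0648 to 0.108). The COL1A2 and SPARC calls were each lost without any 1 of the 4 EG libraries or RT replicate 3, 4 or 5 (adjusted p = 0.0501 to 0.117). The SP7 call was lost without EG replicate 2, 3 or 4 or RT replicate 3, 4 or 5 (adjusted p = 0.0829 to 0.115). The MGP call was lost without EG replicate 1, 3 or 4 or RT replicate 3, 4 or 5 (adjusted p = 0.0909 to 0.125). DSPP, DMP1 and MEPE are not listed under those symbols. The calls of SPP1, COL1A1, COL1A2, SP7, SPARC and MGP were lost without a filter (adjusted p = 0.0622 to 0.417). The calls of COL1A1, COL1A2, SP7 and MGP were lost with quantile normalization (log2 fold change 0.73 to 1.63, adjusted p = 0.0524 to 0.201). The MGP call was lost with all 17 libraries in the fit (adjusted p = 0.155).

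Of 29 genes listed, 25 are in the table and 22 passed the filter. In all, 10 of 22 tested members were called higher and 1 lower, 45.5% and 4.55% beside 8.21% and 4.5% of all genes, and the median log2 fold change was 0.86. By role, 4 of 7 tested members were called higher and 1 lower among matrix genes, 5 of 10 tested members were called higher and 0 lower among mineral regulators and 1 of 5 tested members was called higher and 0 lower among transcription factors. The number higher was 11, 11, 4, 4 and 6 without RT replicates 1 to 5 in turn, and 5, 5, 4 and 4 without EG replicates 1 to 4. Without RT replicates 3 and 5 together it was 4. Summed over the 25 genes in the table, the level was 7910 to 68200 in RT and 3230 to 5180 in EG, so the lowest RT library was above the highest EG library. Most of this sum was COL1A1, COL1A2 and SPARC, so it says little about the other members. ALPL, RUNX2 and IBSP, for example, were not called. In bulk tissue, fewer cells of a type and less RNA per cell cannot be told apart. The 20 dental epithelium markers in the table summed to 201 to 959 in RT and 948 to 1150 in EG, lowest in RT replicate 3, and 0 of the 18 tested were called higher and 2 lower. None of the 20 was at 0 in all libraries, and their part in the dentin result was not tested.

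**Figure D2:**
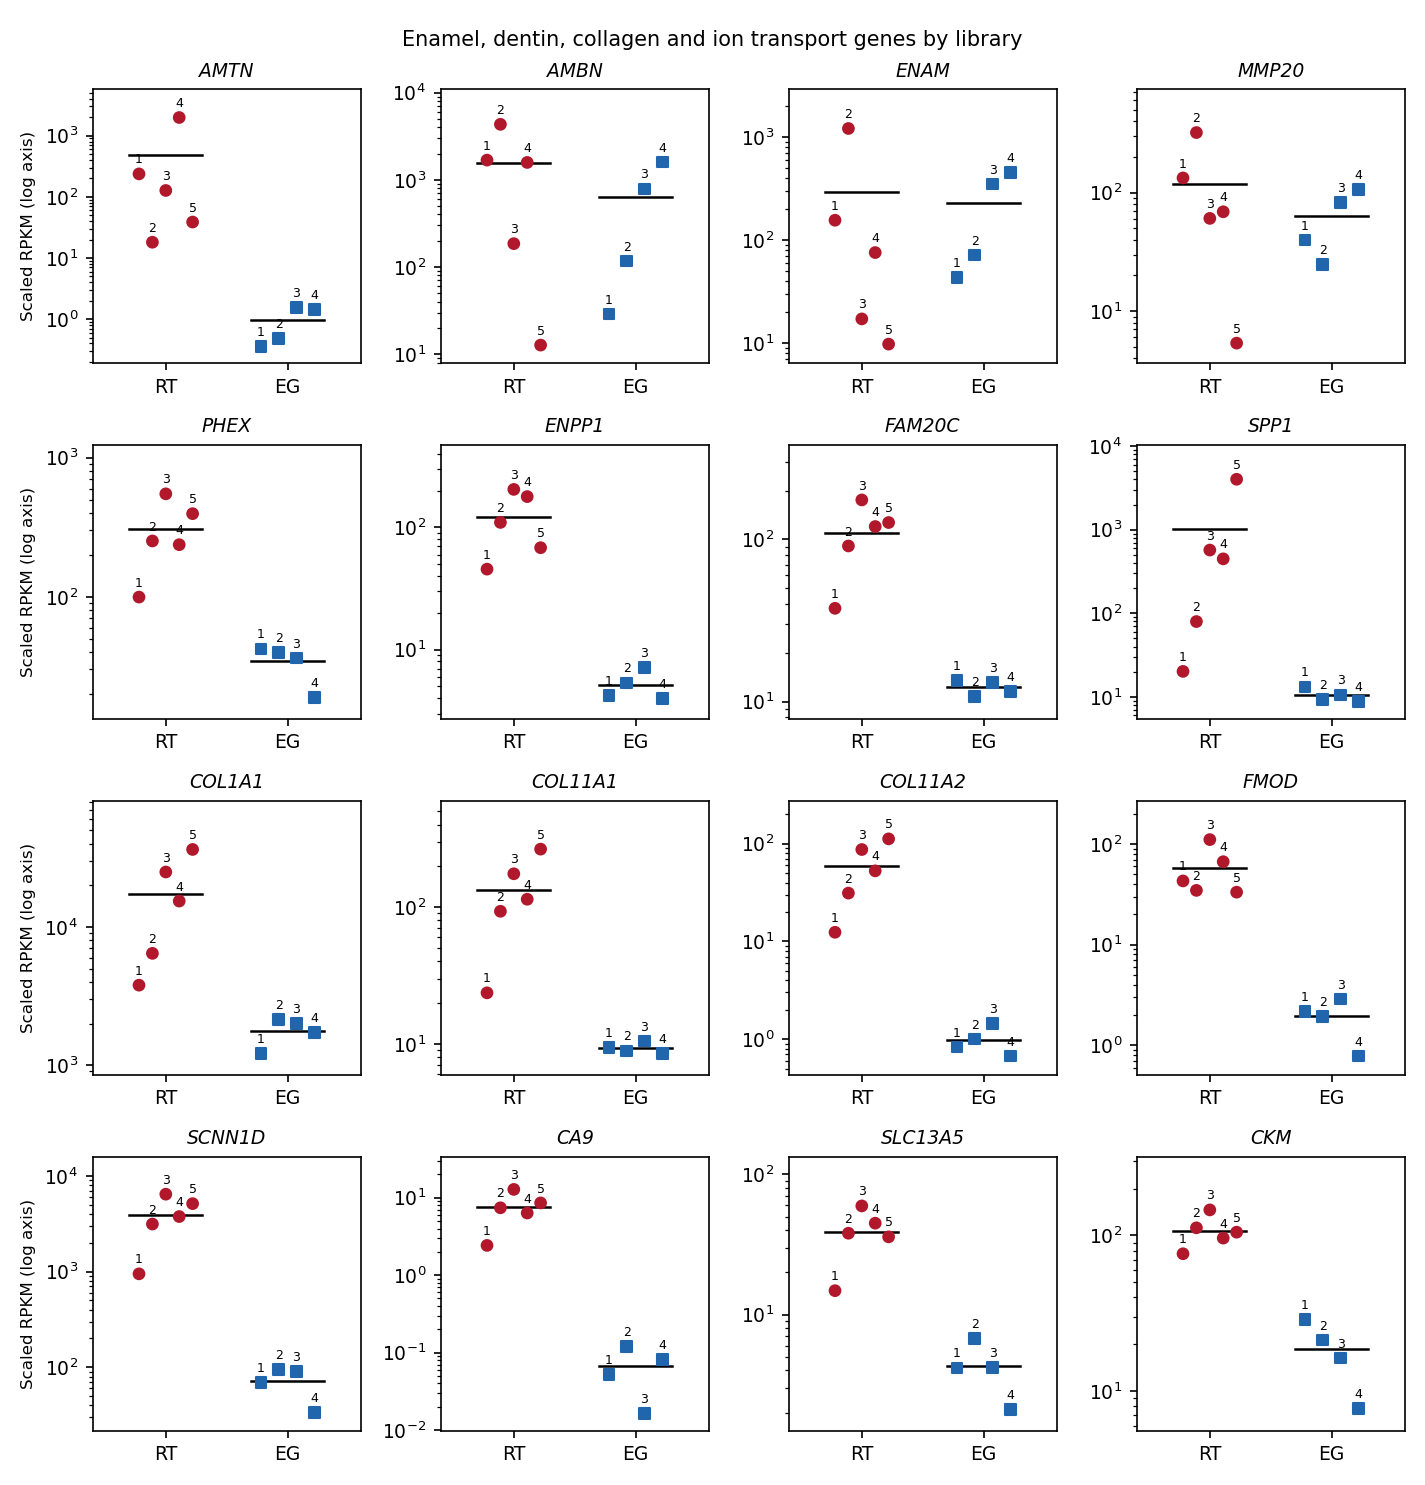
Scaled RPKM per library on log axes for 16 enamel, dentin, collagen, ion transport and muscle enzyme genes, RT (red circles) left and EG (blue squares) right; digits are replicate numbers and black lines are group means. AMBN, ENAM and MMP20 overlap between the groups, whereas PHEX, ENPP1, FAM20C, COL11A2, FMOD and SCNN1D do not.

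Some minor fibrillar collagen genes were also higher, and the calls of COL11A1, COL11A2 and COL2A1 held whichever single library was left out. COL11A2, a chain of the collagen XI that nucleates fibrils, was 12.4, 31.2, 87.1, 52.7 and 112 in RT, against 0.829, 1, 1.44 and 0.669 in EG. The ranges were far apart, and RT replicate 1 was again the lowest RT library (log2 fold change 4.99 ± 0.56 SE, adjusted p = 0.00242). Its partner chain gene COL11A1 was 23.6, 93.1, 175, 114 and 265 in RT, against 9.42, 8.89, 10.5 and 8.47 in EG. The groups were apart in all libraries (log2 fold change 3.41 ± 0.58 SE, adjusted p = 0.00852). COL2A1, best known as the collagen II gene of cartilage, was 12.7 to 89 in RT and 4.26 to 5.04 in EG (2.98, adjusted p = 0.00797). COL22A1, a collagen gene of tissue junctions, was 1.88 to 39.6 in RT and 0.35 to 1.19 in EG (3.36, adjusted p = 0.0217). On the other side, COL18A1, a basement membrane collagen gene, was lower, at 8.86 to 34.3 in RT and 33.8 to 58.2 in EG (-1.30, adjusted p = 0.0346), and the transmembrane collagen gene COL13A1 was lower, at 1.97 to 3.15 in RT and 3.66 to 4.92 in EG (-0.55, adjusted p = 0.0336). Of the fibrillar chains, 6 of 10 tested members were called higher and 0 lower (60% and 0% beside 8.21% and 4.5% of all genes, median 1.76). These 6 include COL1A1 and COL1A2, already counted in the dentin list, whose calls were lost without several single libraries as given above. Of the other chains 1 of 14 tested members was called higher and 2 lower (median -0.50), and the share higher, 7.14%, was near the 8.21% of all genes. Over all 24 tested chains, the number higher was 8, 8, 5, 3 and 6 without RT replicates 1 to 5 in turn, and 3, 3, 3 and 3 without EG replicates 1 to 4. The COL22A1 call was lost without any 1 of the 4 EG libraries or RT replicate 4 (adjusted p = 0.0536 to 0.0687). The COL18A1 call was lost without any 1 of the 4 EG libraries or RT replicate 4 or 5 (adjusted p = 0.0533 to 0.102). The COL13A1 call was lost without any 1 of the 4 EG libraries or RT replicate 3, 4 or 5 (adjusted p = 0.0533 to 0.108). The COL13A1 call was lost without a filter (adjusted p = 0.0542).

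Part of the machinery that folds, trims and crosslinks collagen rose as well. LOXL4, a lysyl oxidase-like crosslinking enzyme gene, was 17.8, 30.3, 61, 48.1 and 77.3 in RT, against 4.67, 3.93, 3.91 and 1.32 in EG. RT replicate 1, the lowest RT library, was still 3.81-fold the highest EG library (log2 fold change 3.51 ± 0.45 SE, adjusted p = 0.00352). PCOLCE, whose product speeds removal of the procollagen C-propeptide, was 217 to 460 in RT and 83.6 to 113 in EG (1.69, adjusted p = 0.00356). SERPINH1, the collagen chaperone HSP47, was 95.4 to 314 in RT and 48.4 to 69.2 in EG (1.55, adjusted p = 0.019), and LEPRE1, a prolyl 3-hydroxylase gene, was 22.8 to 55.3 in RT and 17.9 to 20.6 in EG (0.87, adjusted p = 0.0356). Of 24 genes listed, 22 are in the table and 22 passed the filter; 7 of 22 tested members were called higher and 0 lower (31.8% and 0% beside 8.21% and 4.5% of all genes, median 0.65). The number higher was 14, 9, 3, 3 and 4 without RT replicates 1 to 5 in turn, and 3, 3, 2 and 2 without EG replicates 1 to 4. The SERPINH1 call was lost without EG replicate 2, 3 or 4 (adjusted p = 0.0553 to 0.0634). The LEPRE1 call was lost without any 1 of the 4 EG libraries or RT replicate 3 or 4 (adjusted p = 0.0753 to 0.0992). The LEPRE1 call was lost without a filter (adjusted p = 0.05).

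Of the listed proteoglycans and matricellular genes, the greatest rise was in FMOD, the fibromodulin gene, whose product binds collagen fibrils. It stood at 43.1, 34.7, 111, 66.9 and 33.3 in RT, against 2.17, 1.94, 2.89 and 0.782 in EG. The lowest RT library was 11.5-fold the highest EG library (log2 fold change 4.50 ± 0.39 SE, adjusted p = 0.00114). ABI3BP, a gene outside the list that encodes a secreted matrix protein, was 15.6, 36.3, 94, 75 and 54.2 in RT, against 0.343, 1.13, 1.18 and 1.37 in EG. The groups were again far apart (log2 fold change 5.03 ± 0.48 SE, adjusted p = 0.00149). OLFML2A, an olfactomedin-like secreted protein gene, was 46.9 to 190 in RT and 5.86 to 6.88 in EG (3.97, adjusted p = 0.00111). EFEMP2 (fibulin-4), needed for elastic fibres, was 31.9 to 58.4 in RT and 16.3 to 25.1 in EG (1.11, adjusted p = 0.0133). FBN1, the fibrillin-1 gene, was 34 to 140 in RT and 14.1 to 24.2 in EG (1.89, adjusted p = 0.0196), and DCN, the decorin gene, was 422 to 1110 in RT and 222 to 303 in EG (1.26, adjusted p = 0.0206). KERA, the keratocan gene, was low on both sides and lower in RT, 0.021 to 0.561 in RT and 0.547 to 1.74 in EG (-1.40, adjusted p = 0.0194). Of 29 genes listed, 26 are in the table and 22 passed the filter; 5 of 22 tested members were called higher and 1 lower, beside a median of -0.12. As deposited, without scaling, 5 of these genes were higher and 7 lower. The number higher was 8, 6, 4, 2 and 4 without RT replicates 1 to 5 in turn, and 2, 2, 2 and 2 without EG replicates 1 to 4. The FBN1 and DCN calls were each lost without any 1 of the 4 EG libraries or RT replicate 4 (adjusted p = 0.0503 to 0.0621).

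Proteases of the matrix were divided. The membrane-type metalloproteinase gene MMP16 was higher, at 5.39 to 18.5 in RT and 2.19 to 3.38 in EG (1.68, adjusted p = 0.0164), as was the secreted serine protease gene HTRA3 at 9.74 to 54 in RT and 4.98 to 7.83 in EG (2.19, adjusted p = 0.0167). MMP15, another membrane-type enzyme gene, was lower, at 1.87 to 3.15 in RT and 5.01 to 6.58 in EG (-1.16, adjusted p = 0.00312), and the MMP15 call was kept without any 1 library. The gelatinase gene MMP2 was 169 to 462 in RT and 102 to 180 in EG (1.11, adjusted p = 0.0438). The MMP16 and HTRA3 calls were each lost without EG replicate 2 or 3 (adjusted p = 0.051 to 0.0592). The MMP2 call was lost without any 1 of the 4 EG libraries or RT replicate 3, 4 or 5 (adjusted p = 0.0809 to 0.112). In this list 3 of 21 tested members were called higher and 2 lower. The MMP2 call was lost without a filter (adjusted p = 0.0675). The MMP2 call was lost with quantile normalization (log2 fold change 1.22, adjusted p = 0.073).

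Ion transport genes held the second greatest rise. SCNN1D, named in the table as the delta subunit of the epithelial sodium channel, was 947, 3140, 6440, 3760 and 5130 in RT, against 69.4, 94.3, 89.8 and 33.9 in EG. The lowest RT library, replicate 1, was 10-fold the highest EG library (log2 fold change 5.60 ± 0.55 SE, adjusted p = 0.00149), and in IS and PIS the gene did not exceed 4.05. CA9, a membrane-bound carbonic anhydrase gene, was 2.42, 7.41, 12.8, 6.34 and 8.56 in RT, against 0.052, 0.12, 0.0164 and 0.0813 in EG. EG levels were close to 0, and no RT library was (log2 fold change 3.66 ± 0.37 SE, adjusted p = 0.00149). SLC13A5, a sodium-citrate cotransporter gene that bone cells use, was 14.8, 38, 59.5, 44.8 and 35.8 in RT, against 4.17, 6.73, 4.19 and 2.11 in EG. RT replicate 1, the lowest RT library, was 2.19-fold the highest EG library (log2 fold change 2.98 ± 0.4 SE, adjusted p = 0.00383). The cytosolic carbonic anhydrase gene CA2 was 7.34, 21.9, 69, 86.3 and 178 in RT, against 2.18, 2.03, 2.43 and 2.97 in EG. RT replicate 5 was highest and RT replicate 1 lowest among the RT libraries, with no overlap (log2 fold change 3.97 ± 0.78 SE, adjusted p = 0.0149). CASR, the calcium-sensing receptor gene, was 0.823 to 2.58 in RT and 0.173 to 0.335 in EG (1.54, adjusted p = 0.00905). SLC4A4, a sodium-bicarbonate cotransporter gene, was lower, at 1.02 to 3.65 in RT and 3.99 to 6.51 in EG (-1.45, adjusted p = 0.0191). The CA2 call was lost without EG replicate 2 or 3 (adjusted p = 0.051 to 0.0518). The SLC4A4 call was lost without EG replicate 3 or 4 (adjusted p = 0.0657 to 0.0679). Of 46 genes listed, 40 are in the table and 23 passed the filter; 8 of 23 tested members were called higher and 1 lower (34.8% and 4.35% beside 8.21% and 4.5% of all genes, median 0.50). The number higher was 10, 8, 5, 5 and 8 without RT replicates 1 to 5 in turn, and 7, 4, 4 and 5 without EG replicates 1 to 4. Of the vacuolar proton pump subunits, 1 of 12 tested members was called higher and 0 lower, while without scaling 0 were higher and 5 lower.

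Many genes of the secretory route rose by small amounts. HSP90B1, the endoplasmic reticulum chaperone GRP94, was 89.1 to 108 in RT and 58.8 to 74.1 in EG (0.56, adjusted p = 0.0106). COPE, a coat subunit of vesicles between Golgi and endoplasmic reticulum, was 49.7 to 79.9 in RT and 38.1 to 42.4 in EG (0.71, adjusted p = 0.0115). The chaperone gene HSPA5 (BiP) was 126 to 194 in RT and 79.1 to 98.6 in EG (0.73, adjusted p = 0.0149), and SEC24D, a coat subunit gene of the vesicles that export procollagen, was 19.1 to 42.9 in RT and 11.7 to 13.8 in EG (1.11, adjusted p = 0.0189). Of 56 genes listed, 51 are in the table and 51 passed the filter, and 26 of 51 tested members were called higher and 0 lower, 51% beside 8.21% of all genes. The median was 0.55, and by role 13 of 27 genes of the endoplasmic reticulum and 13 of 24 of transport to the Golgi were higher. This count depends on scaling and on the libraries. As deposited, without scaling, 6 were higher and 1 lower, and after quantile normalization 13 were higher. The number higher was 39, 24, 6, 7 and 18 without RT replicates 1 to 5 in turn, and 8, 4, 2 and 3 without EG replicates 1 to 4. The HSPA5 call was lost without EG replicate 2 or 3 (adjusted p = 0.0524 to 0.0532). The SEC24D call was lost without EG replicate 2, 3 or 4 (adjusted p = 0.0553 to 0.0626). The calls of HSP90B1 and HSPA5 were lost without scaling (log2 fold change 0.17 to 0.33, adjusted p = 0.0681 to 0.304).

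Among energy genes, UQCRB, a subunit gene of respiratory complex III, was 72.4 to 87.2 in RT and 49.2 to 58.9 in EG (0.54, adjusted p = 0.00866) and stayed called without any 1 library. ATP5O, an ATP synthase subunit gene, was 71.5 to 76.1 in RT and 47.9 to 63.2 in EG (0.43, adjusted p = 0.0224). For oxidative phosphorylation 6 of 29 tested members were called higher and 0 lower (median 0.11), whereas without scaling 0 were higher and 4 lower. HIF1A, the hypoxia-inducible factor gene, was 140 to 289 in RT and 88.1 to 128 in EG (0.98, adjusted p = 0.0196), and the glycolytic enzyme gene ENO1 was 302 to 445 in RT and 195 to 246 in EG (0.76, adjusted p = 0.0202). PFKL, a phosphofructokinase gene, was lower, at 10.2 to 14.5 in RT and 15.2 to 17.1 in EG (-0.47, adjusted p = 0.0283). In the glycolysis and hypoxia list 6 of 22 tested members were called higher and 1 lower, with 2 higher and 6 lower without scaling. CKM, the muscle creatine kinase gene, was 76.3, 112, 146, 96.2 and 105 in RT, against 28.9, 21.3, 16.3 and 7.73 in EG. The lowest RT library was 2.64-fold the highest EG library (log2 fold change 2.61 ± 0.34 SE, adjusted p = 0.00352). Of the 14 skeletal muscle genes listed, CKM and 1 other passed the filter. The ATP5O and ENO1 calls were each lost without EG replicate 2, 3 or 4 (adjusted p = 0.0556 to 0.0828). The HIF1A call was lost without EG replicate 2 or 3 or RT replicate 4 (adjusted p = 0.0505 to 0.0644). The PFKL call was lost without any 1 of the 4 EG libraries or RT replicate 3, 4 or 5 (adjusted p = 0.0574 to 0.091). The calls of UQCRB, ATP5O and ENO1 were lost without scaling (log2 fold change 0.0374 to 0.37, adjusted p = 0.116 to 0.814). The calls of ATP5O and ENO1 were lost with quantile normalization (log2 fold change 0.23 to 0.88, adjusted p = 0.0537 to 0.111).

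Genes of dental epithelium lay lower in RT on balance, with few calls. SOX2, a transcription factor gene that marks epithelial stem cells of the lamina in several vertebrates, was 0.252, 0.127, 0.0219, 0.395 and 0.225 in RT, against 0.897, 1.61, 1.93 and 1.65 in EG. Every EG library was above every RT library, although all 9 values were low (log2 fold change -1.52 ± 0.22 SE, adjusted p = 0.0048). LRIG1, a growth factor receptor regulator and stem cell marker gene in skin, was 0.434, 0.125, 0.237, 0.213 and 0.208 in RT, against 1.4, 1.63, 1.25 and 2.37 in EG. The ranges did not overlap (log2 fold change -1.53 ± 0.19 SE, adjusted p = 0.00352). SOX2 and LRIG1 both passed the filter only through EG libraries, the group in which they were higher. SP6, an epithelial transcription factor gene, overlapped between the groups at 37.8 to 175 in RT and 90.3 to 124 in EG (-0.65, adjusted p = 0.293). The keratin gene KRT8 was 4.6 to 39.9 in RT and 49.2 to 54.1 in EG (-2.14, adjusted p = 0.0426) and the desmosome gene PKP2 was 0.558 to 6.22 in RT and 6.66 to 10.3 in EG (-1.71, adjusted p = 0.0492). The KRT8 and PKP2 calls were each lost without any 1 of the 4 EG libraries or RT replicate 3, 4 or 5 (adjusted p = 0.0695 to 0.118). CDH1, the E-cadherin gene, was 4.96 to 51.2 in RT and 31.5 to 44.2 in EG (-0.83, adjusted p = 0.297). The EG libraries also held mesenchymal transcripts, with the intermediate filament gene VIM at 240 to 833 in RT and 375 to 568 in EG (0.27, adjusted p = 0.622). The PKP2 call was lost with a pseudocount of 0.1 (adjusted p = 0.0596). The calls of PKP2 and KRT8 were lost without a filter (adjusted p = 0.0618 to 0.0722). The PKP2 call was lost at a mean RPKM of at least 5 (adjusted p = 0.0517). The PKP2 call was lost without a trend in the variance (adjusted p = 0.0523).

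Of 29 genes listed, 20 are in the table and 18 passed the filter; 0 of 18 tested members were called higher and 2 lower (median -1.0). Of the epithelial junction and basement membrane genes 0 of 24 tested members were called higher and 1 lower (median -0.72), and of the keratin and cornified envelope genes 0 of 11 tested members were called higher and 1 lower (median -0.79). Of the dental lamina and epithelial stem cell markers 1 of 12 tested members was called higher and 3 lower, the higher one being LGR5, a receptor gene of the WNT pathway, at 1.17 to 3.82 in RT and 0.605 to 1.35 in EG (1.12, adjusted p = 0.0404). The LGR5 call was lost without any 1 of the 4 EG libraries or RT replicate 2, 3, 4 or 5 (adjusted p = 0.0514 to 0.105). The mean centred log2 level of the dental epithelium genes was 0.0513, 0.486, -1.65, -0.259 and -0.849 in RT, against 0.501, 0.344, 0.687 and 0.693 in EG. RT replicate 2 lay within the EG range and RT replicates 3 and 5 far below it. The LGR5 call was lost without a filter (adjusted p = 0.0614).

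**Figure D3:**
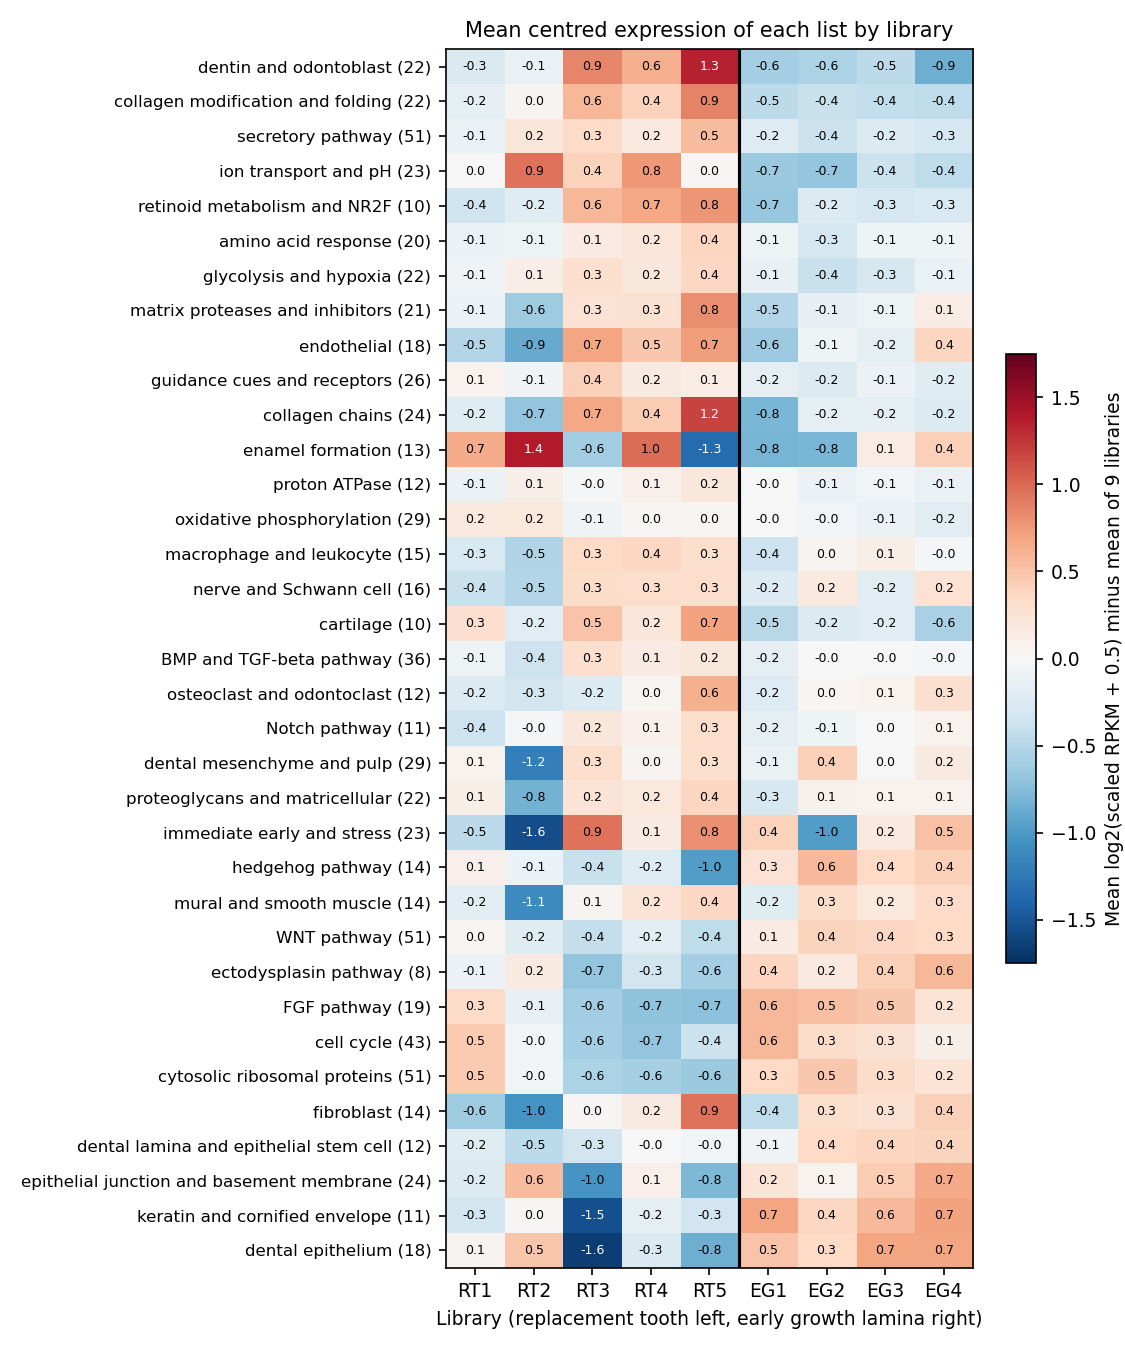
Mean over the tested members of each list (number in parentheses) of log2(scaled RPKM + 0.5) minus the mean of the 9 libraries, RT libraries left of the black line and EG libraries right. Dentin, collagen modification and secretory lists are lower in every EG library than in any RT library, whereas dental epithelium spans from -1.65 in RT replicate 3 to 0.486 in RT replicate 2.

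Of the dental mesenchyme and pulp genes, 2 of 29 tested members were called higher and 2 lower (median -0.07). THY1, a surface glycoprotein gene of dental pulp cells, was 8.99, 15.9, 43.8, 35.3 and 50 in RT, against 3.2, 4.28, 2.88 and 3.67 in EG. The lowest RT library was 2.1-fold the highest EG library (log2 fold change 2.72 ± 0.46 SE, adjusted p = 0.00862). MSX2, a homeobox gene, was 73.3 to 107 in RT and 40.8 to 72.1 in EG (0.84, adjusted p = 0.023). PAX9, needed for tooth formation in mice, was 4.88, 1, 2.06, 3.34 and 2.29 in RT, against 7.59, 7.96, 7.69 and 7.6 in EG. The EG libraries were nearly level and all RT libraries lay below them (log2 fold change -1.48 ± 0.31 SE, adjusted p = 0.0188). PRRX1, a mesenchymal homeobox gene, was 0.106 to 7.07 in RT and 5.2 to 20.3 in EG (-2.51, adjusted p = 0.0419). The homeobox genes MSX1 (0.43, adjusted p = 0.281), LHX6 (0.30, adjusted p = 0.714) and BARX1 (-0.34, adjusted p = 0.803) were not called. The MSX2 call was lost without EG replicate 2, 3 or 4 or RT replicate 3 (adjusted p = 0.054 to 0.0764). The PAX9 call was lost without EG replicate 2, 3 or 4 (adjusted p = 0.0585 to 0.0596). The PRRX1 call was lost without EG replicate 2, 3 or 4 or RT replicate 3 or 4 (adjusted p = 0.068 to 0.116). The PRRX1 call was lost with a pseudocount of 0.1 (adjusted p = 0.0624). The PRRX1 call was lost without a filter (adjusted p = 0.0615). The MSX2 call was lost without scaling (log2 fold change 0.45, adjusted p = 0.117). The MSX2 call was lost with quantile normalization (log2 fold change 0.62, adjusted p = 0.0538). The MSX2 call was lost with all 17 libraries in the fit (adjusted p = 0.387).

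Of 51 WNT pathway genes tested, 8 were called lower in RT and 3 higher, and ligand genes went in opposite directions. WNT16 was 0.377, 1, 0.316, 0.296 and 0.332 in RT, against 2.01, 1.9, 2.93 and 3 in EG. RT replicate 2 was the highest RT library and still below every EG library (log2 fold change -1.64 ± 0.23 SE, adjusted p = 0.00409). WNT1 was 1.25, 3.69, 4.54, 3.32 and 3.08 in RT, against 0.328, 0.489, 0.328 and 0.181 in EG. Every RT library was above every EG library (log2 fold change 2.07 ± 0.29 SE, adjusted p = 0.00409). The frizzled receptor gene FZD8 was 2.38 to 17.1 in RT and 20.1 to 29.4 in EG (-1.93, adjusted p = 0.0348) and FZD1 was 25.9 to 43.8 in RT and 18.1 to 24.1 in EG (0.65, adjusted p = 0.0244). The secreted inhibitor gene DKK2 was 0.123 to 4.18 in RT and 5.11 to 15.9 in EG (-2.66, adjusted p = 0.0269). SOSTDC1 (ectodin), a secreted inhibitor of WNT and BMP signals that limits tooth number in mice, was 53.2, 71.2, 5.42, 8.85 and 4 in RT, against 128, 95.5, 131 and 125 in EG. RT replicates 3, 4 and 5 were the lowest, and RT replicates 1 and 2 lay between them and the EG libraries (log2 fold change -2.92 ± 0.81 SE, adjusted p = 0.0459). SP5, a transcription factor gene and WNT target, was 7.54, 4.15, 0.234, 0.502 and 0 in RT, against 11.5, 12.7, 9.01 and 12.1 in EG. RT replicates 1 and 2 again lay between the other RT libraries and EG (log2 fold change -2.80 ± 0.77 SE, adjusted p = 0.0446). LEF1, a WNT effector, was 1.75 to 8.77 in RT and 7.74 to 12.7 in EG (-1.16, adjusted p = 0.0707). The FZD8, SOSTDC1 and SP5 calls were each lost without any 1 of the 4 EG libraries or RT replicate 3, 4 or 5 (adjusted p = 0.0531 to 0.117). The FZD1 call was lost without any 1 of the 4 EG libraries or RT replicate 3 or 4 (adjusted p = 0.0514 to 0.0742). The DKK2 call was lost without EG replicate 2, 3 or 4 or RT replicate 3 or 5 (adjusted p = 0.0518 to 0.0873). Of 64 genes listed, 56 are in the table and 51 passed the filter, with a median of -0.41. Without scaling 3 were higher and 28 lower. The number lower was 15, 13, 1, 2 and 2 without RT replicates 1 to 5 in turn, and 2, 1, 1 and 2 without EG replicates 1 to 4. The SP5 call was lost with a pseudocount of 0.1 (adjusted p = 0.0663). The calls of SP5, SOSTDC1 and FZD8 were lost without a filter (adjusted p = 0.0511 to 0.0673). The FZD1 call was lost without scaling (log2 fold change 0.26, adjusted p = 0.188). The FZD1 call was lost with quantile normalization (log2 fold change 0.48, adjusted p = 0.0565).

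In the BMP and TGF-beta pathway 3 of 8 ligand genes and 3 of 8 target genes were higher in RT, while 3 of 12 antagonist genes were higher and 3 lower. FST, the follistatin gene, whose product binds activins, was 0.424, 0.539, 0.232, 0.577 and 1.33 in RT, against 3.23, 7.1, 9.71 and 7.95 in EG. The highest RT library was below the lowest EG library (log2 fold change -2.72 ± 0.33 SE, adjusted p = 0.00312). FST met the filter only with EG libraries counted, so this gap is not separate support. FSTL3, a relative of follistatin, went the other way at 32.6, 29.4, 107, 65.8 and 102 in RT, against 12.7, 13.9, 10.8 and 11.5 in EG. The lowest RT library was 2.12-fold the highest EG library (log2 fold change 2.23 ± 0.39 SE, adjusted p = 0.0098). TGFB3 was 29.9 to 91.7 in RT and 9.38 to 17.2 in EG (1.99, adjusted p = 0.00686), and TGFB2, another TGF-beta ligand gene, was 33.8 to 116 in RT and 19.1 to 25.1 in EG (1.67, adjusted p = 0.0198). SMAD6, an inhibitory SMAD gene that BMP signals induce, was 27.7 to 59.6 in RT and 12.7 to 15.2 in EG (1.53, adjusted p = 0.00523). BMP4 was 4.52 to 16.8 in RT and 2.65 to 6.05 in EG and was not called (1.29, adjusted p = 0.0525). Of 46 genes listed, 42 are in the table and 36 passed the filter; 9 of 36 tested members were called higher and 4 lower (median 0.00). As deposited, without scaling, 6 of these genes were higher and 15 lower. The number higher was 9, 11, 4, 3 and 4 without RT replicates 1 to 5 in turn, and 4, 3, 3 and 4 without EG replicates 1 to 4. The TGFB2 call was lost without any 1 of the 4 EG libraries or RT replicate 4 (adjusted p = 0.0505 to 0.0654).

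FGF pathway genes lay lower in RT on balance. FGF10, a mesenchymal ligand gene that sustains dental epithelium in mice, was 6.33, 0.192, 0.733, 0.488 and 0.274 in RT, against 14.7, 14.1, 10.8 and 7.86 in EG. RT replicate 1 was far above the other RT libraries and below every EG library (log2 fold change -3.16 ± 0.61 SE, adjusted p = 0.0143). FGF3, an early tooth bud ligand gene, was 25.2, 1.58, 1.01, 0.934 and 0.35 in RT, against 48.6, 33.3, 19.3 and 5.79 in EG. RT replicate 1 lay within the EG range and the gene was not called (-3.09, adjusted p = 0.066). FGF7 was 0 to 2.58 in RT and 3.34 to 4.55 in EG (-1.92, adjusted p = 0.0357). DUSP6, a phosphatase gene that FGF signals induce, was 5.89, 5.09, 3.78, 3.93 and 4.49 in RT, against 9.03, 9.96, 9.37 and 8.1 in EG. The groups did not overlap, and the libraries within each were close together (log2 fold change -0.92 ± 0.13 SE, adjusted p = 0.00443). Among FGF genes 0 of 19 tested members were called higher and 3 lower (median -0.45). The FGF10 call was lost without EG replicate 2 (adjusted p = 0.0509). The FGF7 call was lost without any 1 of the 4 EG libraries or RT replicate 3 or 4 (adjusted p = 0.0783 to 0.1). The FGF7 call was lost with a pseudocount of 0.1 (adjusted p = 0.0614). The FGF7 call was lost without a filter (adjusted p = 0.0533).

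In the hedgehog pathway, HHIP, which encodes a decoy that binds hedgehog ligands, was 3.9, 2.57, 3.72, 6.01 and 1.21 in RT, against 12.3, 25.8, 19.2 and 20 in EG. The highest RT library was below the lowest EG library (log2 fold change -2.40 ± 0.36 SE, adjusted p = 0.00494). The ligand gene SHH was 51, 152, 6.78, 6.61 and 0.666 in RT, against 67.2, 34.1, 47.5 and 40.8 in EG. RT replicate 2 exceeded every EG library and RT replicate 5 was the lowest (-1.77, adjusted p = 0.331). For the pathway 0 of 14 tested members were called higher and 1 lower (median -0.30). EDA, the ectodysplasin ligand gene, was 0.284 to 2.76 in RT and 3.98 to 6.5 in EG (-1.86, adjusted p = 0.0147), and its receptor gene EDAR was 0.312 to 7.48 in RT and 6.37 to 11.8 in EG (-1.71, adjusted p = 0.108); 0 of 8 tested members were called higher and 1 lower (median -0.44). The Notch target gene HEY1 was higher, at 29.9 to 116 in RT and 16.3 to 23.2 in EG (1.76, adjusted p = 0.0177), and JAG1, a Notch ligand gene, was lower, at 7.46 to 15.3 in RT and 14.6 to 21.9 in EG (-0.79, adjusted p = 0.0465). The EDA and HEY1 calls were each lost without EG replicate 3 or 4 (adjusted p = 0.0548 to 0.0609). The JAG1 call was lost without any 1 of the 4 EG libraries or RT replicate 3 or 4 (adjusted p = 0.0651 to 0.131). RARB, a retinoic acid receptor gene, was 1.47 to 4.03 in RT and 0.329 to 0.622 in EG (1.54, adjusted p = 0.00539) and stayed called without any 1 library, and NR2F1, an orphan nuclear receptor gene, was 0.146 to 0.991 in RT and 1.24 to 2.36 in EG (-1.01, adjusted p = 0.0371). The NR2F1 call was lost without any 1 of the 4 EG libraries or RT replicate 3 or 5 (adjusted p = 0.0583 to 0.112). Dental epithelium markers, at 201 to 959 in RT and 948 to 1150 in EG in sum, were lowest in RT replicate 3, and their part in these values was not tested. The NR2F1 call was lost with a pseudocount of 0.1 (adjusted p = 0.0548). The calls of NR2F1 and JAG1 were lost without a filter (adjusted p = 0.0515 to 0.0658). The JAG1 call was lost without a trend in the variance (adjusted p = 0.0506).

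**Figure D4:**
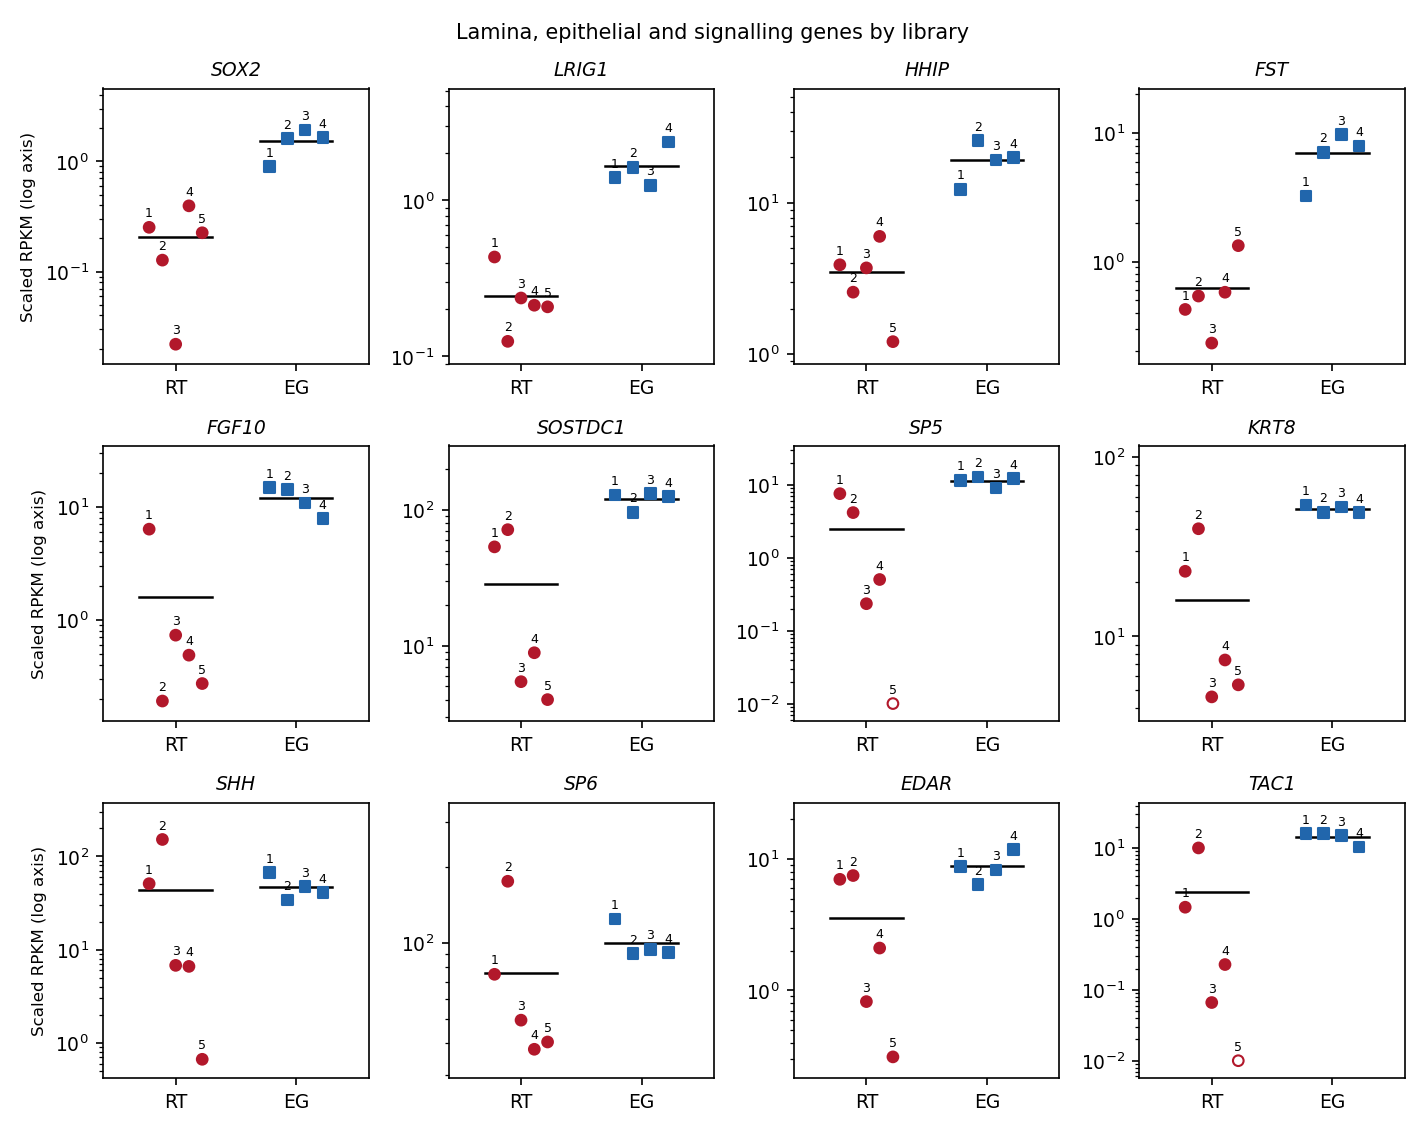
Scaled RPKM per library on log axes for 12 lamina, epithelial and signalling genes, RT (red circles) left and EG (blue squares) right; digits are replicate numbers, black lines are group means, and open circles at the bottom (SP5 and TAC1 in RT replicate 5) stand for 0. SOX2, LRIG1, HHIP and FST are apart in all libraries, while SHH and SP6 overlap. SOX2, LRIG1 and FST met the filter only with EG libraries counted.

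Some nerve-related genes also changed. NTRK2, the receptor gene for brain-derived neurotrophic factor, was 0.348, 0.151, 0.424, 0.867 and 0.991 in RT, against 1.76, 3.12, 3.43 and 3.04 in EG. Every RT library was below every EG library (log2 fold change -1.70 ± 0.28 SE, adjusted p = 0.00718). NGFR, the low-affinity neurotrophin receptor gene, was 0.739 to 1.9 in RT and 2.59 to 4.59 in EG (-1.20, adjusted p = 0.0121), and RET, a receptor gene for GDNF-family ligands, was 0.202 to 1.54 in RT and 2.22 to 3.9 in EG (-1.70, adjusted p = 0.0146). GDNF itself was higher, at 0.659 to 5.93 in RT and 0.104 to 0.671 in EG (1.96, adjusted p = 0.033). In the list 2 of 16 tested members were called higher and 4 lower. The RET call was lost without EG replicate 2 (adjusted p = 0.0507). The GDNF call was lost without any 1 of the 4 EG libraries or RT replicate 3, 4 or 5 (adjusted p = 0.0662 to 0.0873). Of axon guidance genes 5 of 26 tested members were called higher and 0 lower; SEMA5A, a semaphorin gene, was 21.7 to 55.5 in RT and 10.6 to 14.6 in EG (1.57, adjusted p = 0.00576), and the netrin receptor gene UNC5B was 22 to 49.4 in RT and 14.2 to 20 in EG (0.97, adjusted p = 0.0199). As deposited, without scaling, 3 of these genes were higher and 5 lower. The number of guidance genes higher was 6, 8, 3, 2 and 4 without RT replicates 1 to 5 in turn, and 4, 1, 1 and 1 without EG replicates 1 to 4. The UNC5B call was lost without EG replicate 2, 3 or 4 or RT replicate 4 (adjusted p = 0.0517 to 0.0652).

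The tachykinin precursor genes TAC4 and TAC1 were among the greatest changes, in opposite directions. TAC4 was 8.72, 30.8, 39.3, 16.2 and 44.1 in RT, against 0, 0.277, 0.0454 and 0.045 in EG. It was near 0 in every EG library and in no RT library (log2 fold change 5.39 ± 0.44 SE, adjusted p = 0.000913). TAC1, which encodes substance P, was 1.47, 10.1, 0.0663, 0.228 and 0 in RT, against 16, 16.1, 15 and 10.4 in EG. RT replicate 2 was just below the EG range and the other RT libraries were far below it (log2 fold change -3.45 ± 0.81 SE, adjusted p = 0.0275). The TAC1 call was lost without any 1 of the 4 EG libraries or RT replicate 3, 4 or 5 (adjusted p = 0.0544 to 0.0812).

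Markers of vessels, leukocytes and clast cells gave few calls. The endothelial gene PLVAP was 16 to 56.5 in RT and 8.92 to 15.3 in EG (1.45, adjusted p = 0.0404), and PECAM1, a defining endothelial gene, was 1.92 to 9.46 in RT and 2.57 to 7.22 in EG (0.16, adjusted p = 0.829); 1 of 18 tested members was called higher and 0 lower. Of mural and smooth muscle genes 1 of 14 tested members was called higher and 1 lower in limma. The higher one was ABCC9, at 1.83 to 8.09 in RT and 1.22 to 1.67 in EG (1.57, adjusted p = 0.0206). The lower one was MYOCD, a smooth muscle coactivator gene, at 0.269 to 0.876 in RT and 2.12 to 4.02 in EG (-1.79, adjusted p = 0.00352). Macrophage and leukocyte markers summed to 118 to 163 in RT and 114 to 150 in EG, and 0 of 15 tested members were called higher and 0 lower in limma. At an unadjusted p under 0.05, 2 were higher and 1 lower, beside 4089 of all 12389 genes in either direction. The leukocyte gene LAPTM5 had the smallest p of that list (0.64, adjusted p = 0.0576). The clast protease gene CTSK was 13.5, 2.77, 7.44, 8.9 and 44.7 in RT, against 6.5, 17.5, 12.2 and 21.7 in EG, and ACP5, the clast acid phosphatase gene, was 2.73, 1.86, 2.1, 3.5 and 12.5 in RT, against 1.88, 3.59, 2.31 and 2.98 in EG. RT replicate 5 was the highest library for both, and neither was called (-0.33, adjusted p = 0.757 and 0.36, adjusted p = 0.614). The clast marker gene ITGB3 was called higher in limma, with overlap, at 4.67 to 13 in RT and 3.09 to 4.78 in EG (1.12, adjusted p = 0.0307). In the clast list 1 of 12 tested members was called higher and 1 lower, 8.33% each beside 8.21% and 4.5% of all genes. IL34, a ligand gene of the macrophage receptor CSF1R, was lower, at 3.45 to 5.28 in RT and 7.16 to 8.79 in EG (-0.75, adjusted p = 0.00894). HBA1, an alpha globin gene, was 79.4 to 990 in RT and 21.3 to 50.4 in EG (2.88, adjusted p = 0.0249). The 6 red blood cell markers in the table summed to 81.2 to 996 in RT and 22.6 to 52.8 in EG. Nearly all of that sum was HBA1, so it adds little to the single gene. Of the 2 members tested, only HBA1 was called and only 1 had a positive log2 fold change. The PLVAP call was lost without any 1 of the 4 EG libraries or RT replicate 3, 4 or 5 (adjusted p = 0.0755 to 0.117). The HBA1 call was lost without any 1 of the 4 EG libraries or RT replicate 5 (adjusted p = 0.0517 to 0.0755). The PLVAP call was lost without a filter (adjusted p = 0.059). The HBA1 call was lost with all 17 libraries in the fit (adjusted p = 0.0836).

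Cell division and ribosomal protein genes lay lower in RT with almost no calls. Of cell cycle genes 0 of 43 tested members were called higher and 1 lower (median -0.53), and of cytosolic ribosomal protein genes 0 of 51 tested members were called higher and 1 lower (median -0.62). The shares called lower, 2.33% and 1.96%, were below the 4.5% of all genes. In these lists 1 of 43 and 0 of 51 members had a positive log2 fold change. At an unadjusted p under 0.05 in limma, 21 cell cycle and 36 ribosomal genes were lower and 0 of either were higher. That p was met by 4089 of the 12389 genes in either direction. Genes lower at that p were not counted over all genes, so the list counts have no matching share. The calls in both lists depend on RT replicate 1 and on scaling. Without that library 31 cell cycle genes and 48 ribosomal genes were called lower, and without scaling 34 and 47 were. Over all genes, 1629 of 12341 were called lower without that library and 5119 of 12389 without scaling. MKI67, a marker gene of dividing cells, was 8.44, 6.96, 4.05, 2.89 and 4.57 in RT, against 8.51, 5.68, 5.85 and 5.92 in EG. RT replicates 3, 4 and 5 were below every EG library and RT replicates 1 and 2 within the EG range (-0.32, adjusted p = 0.436). Of immediate early and stress genes 0 of 23 tested members were called higher and 0 lower in limma. At an unadjusted p under 0.05, 1 was higher and 1 lower, beside the 4089 of all 12389 genes in either direction. The smallest p among the stress genes was that of the chaperone gene HSPA8 (0.68, adjusted p = 0.0756).

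**Figure D5:**
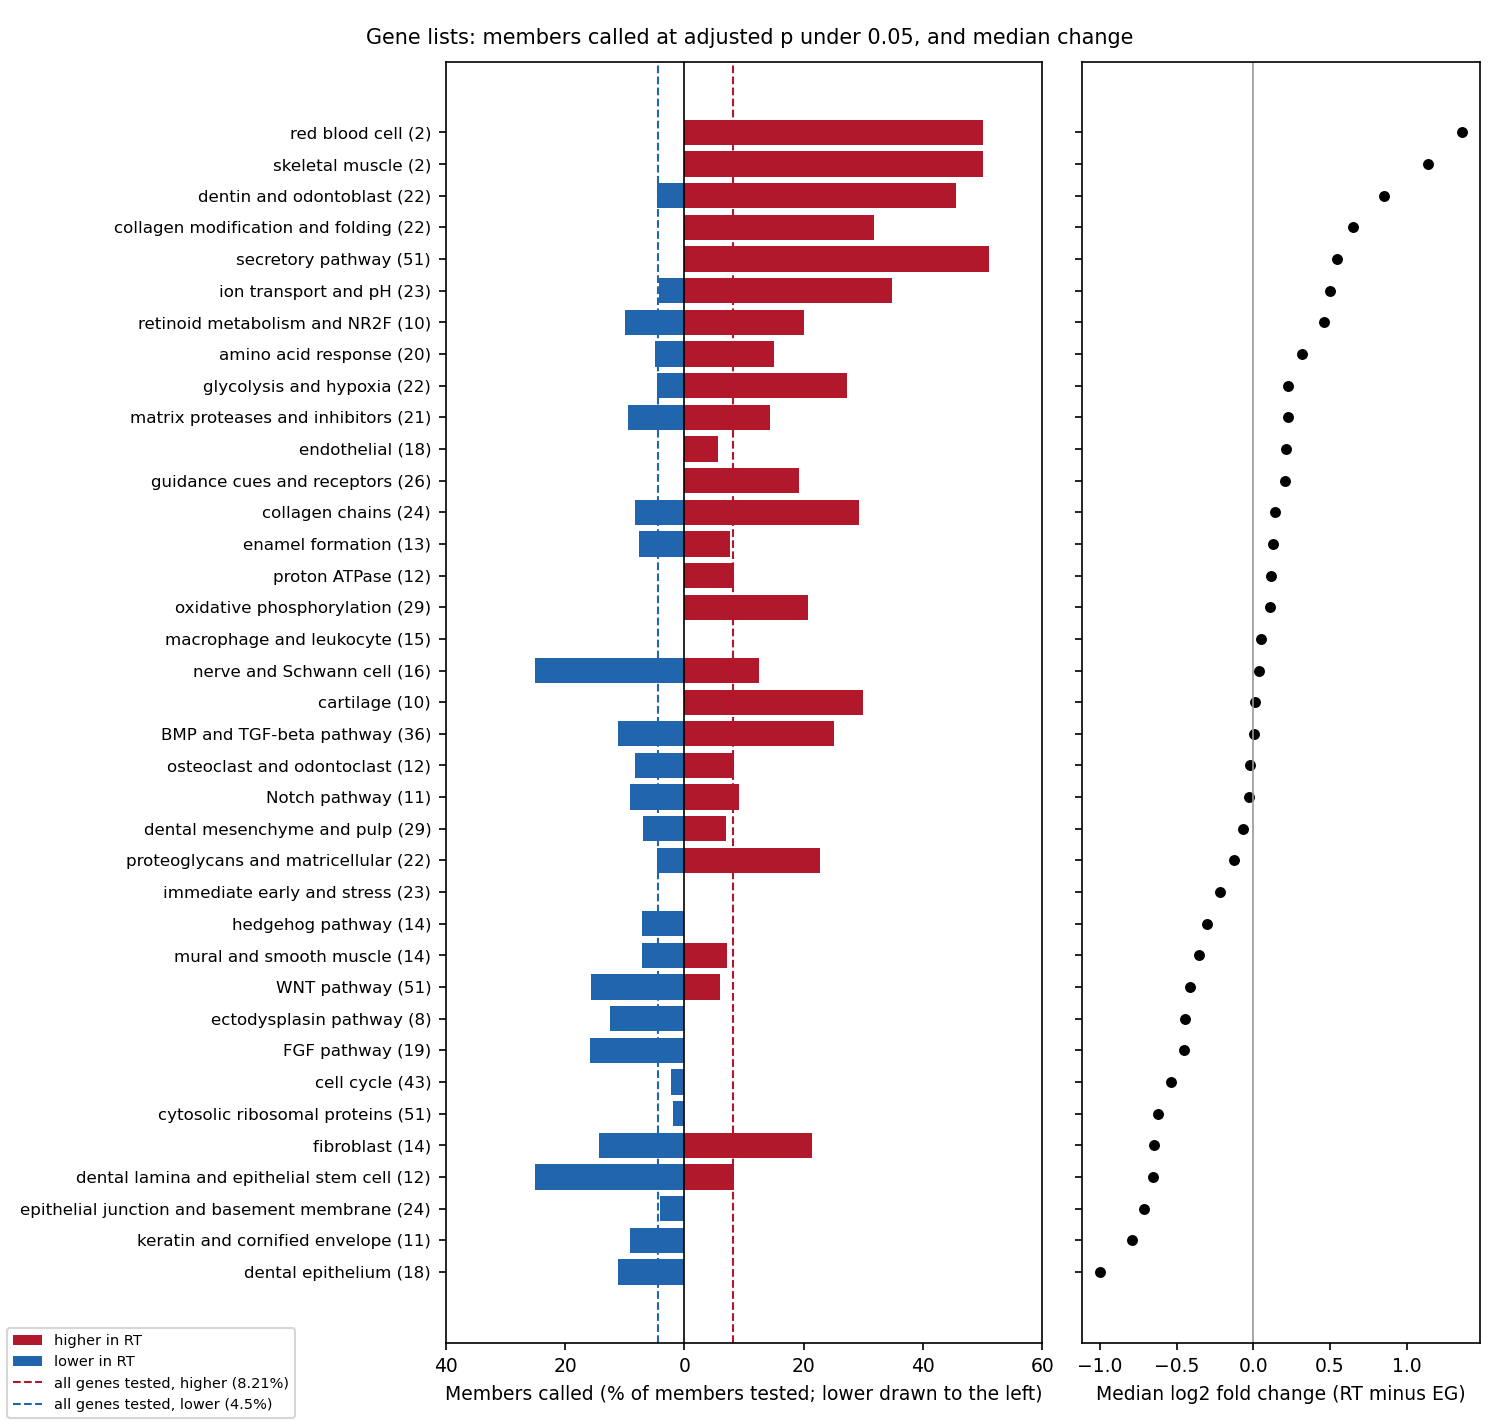
Left, percentage of tested members of each list (number in parentheses) called higher in RT (red, to the right) or lower (blue, to the left), with dashed lines at 8.21% and 4.5%, the shares of all genes tested; right, median log2 fold change of the tested members. Secretory pathway (51%) and dentin (45.5%) have the most members higher among lists of over 2 genes, and dental epithelium has the lowest median.

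Other genes among the greatest changes, picked only from genes without overlap between the groups, were of mixed kinds. MAPK8IP1, a scaffold gene of the JNK kinases, was 12.1 to 49.9 in RT and 0.901 to 1.73 in EG (4.05, adjusted p = 0.00132). OLFM3, an olfactomedin gene, was 2.91 to 15.8 in RT and 0.0151 to 0.0913 in EG (3.81, adjusted p = 0.00242). Among the falls, LRIG3, a relative of LRIG1, was 13.6, 6.47, 3.86, 10.9 and 4.39 in RT, against 37.5, 29.6, 42.8 and 44.5 in EG. Every RT library was below every EG library (log2 fold change -2.36 ± 0.34 SE, adjusted p = 0.00478). CPE, a carboxypeptidase gene of peptide hormone processing, was 1.25 to 7.7 in RT and 19.3 to 30.8 in EG (-2.53, adjusted p = 0.00804). LIMK1, a kinase gene that controls actin, was 0.644 to 2.36 in RT and 6.19 to 22.8 in EG (-2.56, adjusted p = 0.00719), LUZP2, a leucine zipper protein gene, was 0 to 2.4 in RT and 5.81 to 7.09 in EG (-2.94, adjusted p = 0.00611), and CTSW, a cathepsin gene, was 0.0679 to 1.4 in RT and 5 to 12.3 in EG (-3.18, adjusted p = 0.00388). These calls from MAPK8IP1 to CTSW were kept without any 1 library. CYP1B1, a cytochrome P450 gene, was 0.0554 to 7.35 in RT and 11.9 to 15.4 in EG (-3.12, adjusted p = 0.0459). The CYP1B1 call was lost without any 1 of the 4 EG libraries or RT replicate 3, 4 or 5 (adjusted p = 0.09 to 0.114). The CYP1B1 call was lost with a pseudocount of 0.1 (adjusted p = 0.0602). The CYP1B1 call was lost without a filter (adjusted p = 0.0675).

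Further lists were small or mixed. The fibroblast markers gave 3 of 14 tested higher and 2 lower, with the complement gene C7 at 8.92 to 75.4 in RT and 1.28 to 6.99 in EG (2.88, adjusted p = 0.0274) and the plasma protein gene CLEC3B, which fibroblasts also make, at 0.182 to 4.65 in RT and 8.78 to 16 in EG (-2.74, adjusted p = 0.0146). Most fibroblast markers lay lower in RT, as only 5 of the 14 had a positive log2 fold change (median -0.65). Of 10 cartilage genes tested, 3 were higher, 2 of them the collagen genes COL2A1 and COL11A2 above. Of 20 genes of the amino acid response, 3 were higher and 1 lower, against 0 and 3 without scaling. The C7 call was lost without any 1 of the 4 EG libraries or RT replicate 3, 4 or 5 (adjusted p = 0.0529 to 0.0847). The CLEC3B call was lost without EG replicate 2 or 3 (adjusted p = 0.0514 to 0.0533).

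The 3 IS and 5 PIS libraries place these levels in the rest of the series, as a description without a test. COL11A2 was 0.119 to 0.187 in IS and 0.0307 to 0.16 in PIS, and TAC4 was 0.0673 to 0.154 in IS and 0 to 0.227 in PIS. PHEX was 6.3 to 7.85 in IS and 0.635 to 9.52 in PIS. For these 3 genes every IS and PIS library was below the lowest RT library, as for 34 of the 62 named genes called higher. For others the ranges overlapped. SPP1 was 18.2 to 92.3 in IS and 10.4 to 25.6 in PIS, COL1A1 was 1390 to 5220 in IS and 2190 to 4820 in PIS and FSTL3 was 10.2 to 51.7 in IS and 13.7 to 82.8 in PIS, each reaching above the lowest RT library. SOX2 was 2.07 to 2.5 in IS and 2.09 to 4.31 in PIS, and FST was 9.73 to 38.5 in IS and 26.1 to 50.2 in PIS. HHIP was 14.7 to 21.7 in IS and 10.8 to 123 in PIS. For these 3 genes every IS and PIS library was above the highest RT library, as for 22 of the 40 named genes called lower. The same counts over all genes were not made, and many named genes were chosen for their gap between RT and EG. The counts of 34 and 22 therefore describe only the named genes. By contrast SOSTDC1, at 9.78 to 82.1 in IS and 2.2 to 14.7 in PIS, reached below the highest RT library in both stages. FGF10 was 8.08 to 16.1 in IS and 2.37 to 4.53 in PIS, and RET was 2.63 to 3.95 in IS and 0.147 to 0.458 in PIS. These genes reached below the highest RT library in PIS only.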

How the data were processed

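RNA sequencing values of 9 libraries were taken from a table of RPKM values deposited by the authors, which also lists alignments per library. The tools named per the submitters' processing notes are Partek 3 and TopHat2 2.1.0, whose roles are not stated. The build and the annotation are likewise not given in the sources used here. Gene names, paralog suffixes included, are those of the table. Strand is not stated, so overlapping and antisense genes are uncertain. Read counts were not rebuilt from the RPKM, and counting intervals are therefore left out. Columns were matched to samples by name, and 0 columns were left over.

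The row of alignments was dropped. The RPKM were filtered (1 or more in 3 or more of 9 libraries), divided by median-ratio factors, put on the log2(value + 0.5) scale and fitted with limma 3.58.1 in R 4.3.3 (RT minus EG, empirical Bayes with trend, Benjamini-Hochberg adjustment over 12389 genes, two-sided). Count-based tools were not used. No 2 libraries held identical values. Labels do not say that shared replicate numbers mark an animal, litter or day.

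The libraries compared, the 37 gene lists and the tests were chosen with earlier results of these data known, so no p is given for a list. The naming rule took, from called genes with a symbol and no overlap between groups, the 15 that rose most and the 15 that fell most, up to 4 called members per list and direction with the smallest p (or the member with the smallest p), and 40 anchor genes. It named 158 genes, most of which are given here. Alternatives were other pseudocounts, filters and scalings, array weights, no trend, all 17 libraries in the fit, a minimum fold change, a replicate block and libraries left out.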

Additional observations from a re-analysis of the deposited data

Results flagged for a closer look

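In groups of this size a library was singled out where its gap to the nearest other library, as a share of the whole range of its group, passed the 95% limit of Dixon's test. This met 21 of 254 gene and group pairs. The limit gives about 1 in 20 pairs by chance only for normal and independent values. The scaled RPKM were not log transformed here, and many of the genes were chosen for their changes. The 21 pairs therefore cannot be set against that rate. Values are scaled RPKM, set beside the range of the other libraries of the same group, and no cause was tested.

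RT replicate 1 stood apart for LUZP2 at 2.4 beside 0 to 0.598, FGF10 at 6.33 beside 0.192 to 0.733 and FGF3 at 25.2 beside 0.35 to 1.58. RT replicate 2 stood apart for TAC1 at 10.1 beside 0 to 1.47, WNT16 at 1 beside 0.296 to 0.377, SLC4A4 at 3.65 beside 1.02 to 1.75, ENAM at 1220 beside 9.85 to 157 and SP6 at 175 beside 37.8 to 74.9. RT replicate 4 stood apart for AMTN at 1980 beside 18.1 to 237. RT replicate 5 stood apart for SPP1 at 4010 beside 20.2 to 571, IBSP at 301 beside 1.42 to 30.3, CTSK at 44.7 beside 2.77 to 13.5 and ACP5 at 12.5 beside 1.86 to 3.5.

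EG replicate 1 stood apart for DCN at 222 beside 290 to 303, SP6 at 124 beside 90.3 to 94, LEF1 at 7.74 beside 12 to 12.7, CSF1R at 1.27 beside 2.29 to 2.39 and MKI67 at 8.51 beside 5.68 to 5.92. EG replicate 2 stood apart for TAC4 at 0.277 beside 0 to 0.0454, SOSTDC1 at 95.5 beside 125 to 131 and MSX1 at 37.3 beside 21.1 to 22.3.

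For AMTN and SPP1 the other RT libraries also lay above every EG library. For CTSK, ACP5, ENAM, SP6 and IBSP at least 1 of the other RT libraries lay within or below the EG range, and none of these 5 genes was called.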

How the results depend on the processing

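Of 21 alternatives, 6 kept all 3 counts of called genes within 1.5 times the reported 1575 (1017 higher, 558 lower). Beyond that, the counts were 982 (723 higher, 259 lower) at a mean RPKM of at least 5, 5704 (585 higher, 5119 lower) without scaling, 5684 (2869 higher, 2815 lower) with array weights, 698 (471 higher, 227 lower) when a log2 fold change of 1 or more was required and 539 (352 higher, 187 lower) without RT replicates 3 and 5. With each library left out in turn they ranged from 448 to 3634 (308 to 2005 higher, 140 to 1629 lower). With the replicate block they were 374 (253 higher, 121 lower). Same-numbered RT and EG libraries had correlations of 0.153, -0.215, 0.0441 and 0.32 between their deviations from the group means, so a pairing by number was not established. Of the 102 called genes named above, 26 were called under all 21 alternatives, 11 under the 20 in which they passed the filter, and 0 changed sign. Without scaling 7 of the 102 were lost, with quantile normalization 9, without a filter 21 and with the block 56. Of the 25 genes not called, 8 were called with 1 library left out (LAPTM5, HSPA8, ALPL, SP6, LEF1, BMP4, EDAR and FGF3). Among the genes not called, the log2 fold change changed sign without scaling for MMP20 (-0.157), LHX6 (-0.0285), PECAM1 (-0.204) and VIM (-0.128), with array weights for AMBN (-0.206), MMP20 (-0.458), BARX1 (0.481) and CALB1 (-0.179), with the replicate block for PECAM1 (-0.0248) and ACP5 (-0.0661) and without RT replicates 3 and 5 together for ENAM (0.702), PECAM1 (-0.366), ACP5 (-0.000695), CSF1R (-0.0954) and VIM (-0.0792). With each library left out in turn it changed sign in at least 1 case, over the range given, for AMBN (-0.113 to 2.24), BARX1 (-0.752 to 0.304), PECAM1 (-0.0815 to 0.461), CALB1 (-0.307 to 2.28), MMP20 (-0.354 to 1.09), LHX6 (-0.00338 to 0.752), RUNX2 (-0.475 to 0.131), CTSK (-0.845 to 0.103) and ACP5 (-0.0661 to 0.55). The causes were not tested.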
